A study of Mus musculus with 10 samples.

Results

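Capillary LECs of the ear skin were taken from the pair of 10x libraries as the 25% of lymphatic endothelial cells (LECs) with the highest capillary score. The score was the mean log2(UMIs per 10000 + 1) of 5 genes of the study's capillary program (*Reln*, *Piezo2*, *Slco2b1*, *Pcsk6*, *Dlg1*) minus the mean of 7 genes of its collecting vessel program (*Tgm2*, *Mmrn2*, *Plvap*, *Procr*, *Ccdc3*, *Tsc22d1*, *Bgn*), where a UMI is 1 counted RNA molecule. LECs were gated first: cells with at least 500 detected genes, at most 10% mitochondrial UMIs, at least 2 UMIs of *Prox1*, at most 1 UMI of *Flt1* and under 5 UMIs over 4 valve genes (*Cldn11*, *Gdf10*, *Sbspon*, *Fibin*). The gate kept 1460 of 9016 barcodes and the score kept 365 of these, 177 in the IgG library and 188 in the Ang2 Ab library. These 365 cells are called capillary-scored LECs, and the other 1095 gated cells are called other LECs.

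The study examined how angiopoietin-2 and the Tie receptors maintain postnatal lymphatic vessels. Wild-type C57Bl/6j pups received a mouse IgG control or an antibody that blocks Ang2 (Ang2 Ab), at 20 mg/kg every 3 days from P16 to P21, and endothelial cells of their ear skin were sorted on CD31. Each condition was 1 library, the number of pups behind it was not given, and the labelled age was P1 to P21. As a replicated check, 4 further samples were used, plates 1 to 4: plates 1 and 2 came from Tie1fl/fl mice and plates 3 and 4 from Tie1fl/fl,Tie2fl/fl mice, all Cre-, so that both Tie genes were intact although all received 4-OHT at P1 to P5, and their LECs had been sorted on podoplanin and CD31 for Smart-seq with analysis at P28. Plate 1 was labelled female and the others male. Age, dissection, antibody exposure and chemistry therefore differ between the 10x libraries and the plates, and no plate received an antibody.

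Lymphatic capillaries are the blind-ended first vessels of the lymphatic tree, which take up fluid, macromolecules and migrating leukocytes through button-like junctions and pass them to collecting vessels with valves. LYVE1, a hyaluronan receptor on the surface of capillary LECs, is lost from most collecting vessels. Ang2, encoded by *Angpt2*, is secreted by LECs themselves and acts on the TIE1 and TIE2 receptors of the same cells, upstream of PI3K, Akt and the FOXO1 transcription factor.

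Before the results, 3 features of the libraries bear on every comparison. The title of the Ang2 Ab library ends in the word control, while its treatment label names the Ang2 antibody, and it was analysed by the treatment label. Both libraries were labelled male, yet both held cells with *Xist*, the RNA of the inactive X chromosome of females. Of the capillary-scored LECs, 59.3% in IgG and 27.1% in Ang2 Ab had UMIs of *Xist* and none of 4 Y-linked genes, and 31.6% and 64.4% had the reverse. In other LECs these shares differed less, at 52.9% in IgG and 44.1% in Ang2 Ab, and 37.0% and 43.1% for the reverse. The sex of the cells thus moved with the treatment, so treatment ratios were also computed within each kind of cell. The libraries had 5 barcodes in common, of which 0 were gated LECs.

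Depth per cell was close between the groups, while the sums were not. The libraries held 4685 barcodes with 42337184 UMIs (IgG) and 4331 barcodes with 31720670 UMIs (Ang2 Ab). The capillary-scored LECs had a median of 11367 UMIs per cell in IgG and 12073.5 in Ang2 Ab, against 12812.5 and 11867 in other LECs, and their sums were 2223518 and 2566602 UMIs, against 10967201 and 4260377 in other LECs. Their median mitochondrial shares were 4.51% and 4.82%. All 95% intervals below are exact intervals of counts and cover counting error only, because with 1 library per condition no spread between animals was measured.

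The score was continuous, with no gap at its limit. Scores ran from -3.01 to 3.50 around a median of 0.76, and the limit for the highest 25% was 1.56. Within 0.1 of the limit lay 46 capillary-scored and 36 other LECs, so a small shift of the limit exchanges cells that are nearly alike. The capillary-scored class made up 18.5% of gated LECs in IgG (95% interval 16.05 to 21.06) and 37.5% in Ang2 Ab (33.3 to 41.9). These shares are given as a description only, since *Tgm2* (120 CPM in IgG against 53.0 CPM in Ang2 Ab in capillary-scored LECs, where CPM is a gene's UMIs per 1000000 UMIs of the summed cells) and *Bgn* (59.4 against 26.9), both score genes, were themselves past 2-fold between the libraries. The number of LECs that passed the gate, 959 and 501, also differed, and recovery of vessel types after digestion and sorting was not measured.

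**Figure D1:**
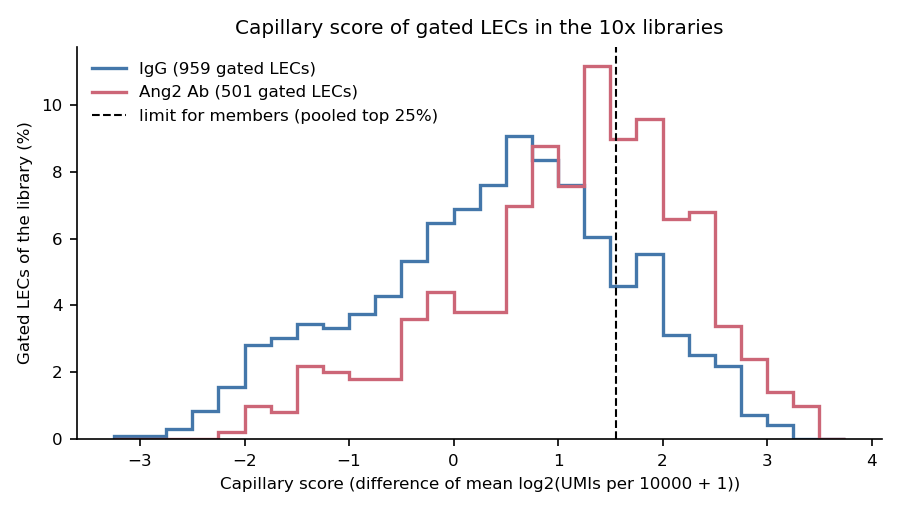
Distribution of the capillary score (x axis, difference of mean log2(UMIs per 10000 + 1)) over gated LECs of each 10x library, as percent of the library's gated cells per bin (y axis), with the limit of 1.56 drawn as a vertical line. The Ang2 Ab cells lie to the right of the IgG cells, and neither distribution has a gap at the limit.

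The label was checked against genes outside the score. *Lyve1* (chr7:110850607-110863239, GRCm38), the classical capillary marker, was at 4102 CPM in capillary-scored LECs and 1709 in other LECs of the IgG library, a ratio of 2.40, and at 4972 and 2497 in the Ang2 Ab library, a ratio of 1.99. *Tppp3*, a tubulin-binding protein gene of the same program, had ratios of 1.94 and 1.92. The pooled gated cells were also divided into 4 equal bins by score, and from the lowest bin to the highest *Lyve1* was at 414, 1850, 3152 and 4102 CPM in IgG and at 124, 1804, 3777 and 4972 in Ang2 Ab. Per cell, the *Lyve1* median was 36.8 UMIs per 10000 in IgG and 47.1 in Ang2 Ab. The capillary name thus matched the 2 capillary markers that the score did not use, though both belong to the program from which the score was built.

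Genes that define other skin cells were scarce in the capillary-scored LECs. *Ptprc*, which marks leukocytes, *C1qa* of macrophages, and *Krt1* of keratinocytes were at 0 in both libraries. The keratinocyte list summed to 4.95 CPM in IgG and 3.90 in Ang2 Ab, the immune list to 8.55 and 5.84, and the Schwann cell and melanocyte list to 7.20 and 6.23. Fibroblast genes summed to 105 and 77.9, led by the collagen gene *Col1a2*, and blood endothelial genes to 152 and 178, led by *Emcn*. The hemoglobin genes of red blood cells, which lyse and release RNA, summed to 147 and 99.0. The pericyte and mural cell list summed to 52.6 in IgG and 69.7 in Ang2 Ab. Most of it came from *Rgs5*, at 43.2 in IgG and 14.03 in Ang2 Ab, and *Kcnj8*, at 3.15 and 48.7, which went opposite ways, with *Pdgfrb* at 1.80 and 1.17, *Cspg4* at 0.900 and 0, *Acta2* at 3.15 and 5.07 and *Myh11* at 0.450 and 0.779. In other LECs that list summed to 58.4 and 356, but 1 cell held 267 of the 606 *Rgs5* UMIs and 1 cell 208 of the 621 *Acta2* UMIs of the other LECs of Ang2 Ab, so the sum of 356 rests partly on few cells. The part of such RNA in the results was not tested.

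Against other LECs, the capillary-scored cells shared a set of genes in both libraries. Of 7587 genes with at least 100 UMIs in each library's gated LECs, 65 (0.857%) were at least 2-fold higher and 105 (1.38%) at least 2-fold lower in both libraries. Far fewer were higher when cells were scored after thinning, and both counts moved with the UMI minimum, as the last section gives. The score chose the cells in this contrast, so these values describe what the score sorted and carry no test. The highest outside the score was *Mrc1*, the mannose receptor that captures glycoproteins and lymphocytes, at 143 against 34.0 CPM in IgG (4.22-fold) and 210 against 52.6 in Ang2 Ab (4.00-fold). After thinning every cell to 4000 UMIs, an *Mrc1* UMI was found in 32.7% (IgG) and 36.1% (Ang2 Ab) of capillary-scored LECs and in 9.40% and 10.5% of other LECs, against 0.123% and 0.133% of blood endothelial cells.

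The next genes had varied roles. *Aqp1*, a water channel, had ratios of 3.398 (IgG) and 3.16 (Ang2 Ab), and *Enpp3*, an ectoenzyme that splits nucleotides, had 3.03 and 2.60. *Cd276*, an immune checkpoint molecule of the B7 family, had ratios of 3.47 and 2.97. *Ptgfrn*, a partner of tetraspanins, had 2.77 and 2.80, and *Ptx3*, a secreted pattern recognition protein, had 2.73 and 3.32. *Syne1*, which links the nucleus to actin, had ratios of 3.42 and 2.95, and *Raph1* (lamellipodin), which promotes actin at the leading edge, had 2.74 and 2.79.

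The genes lowest in capillary-scored LECs included several with few UMIs there. *Slco2a1*, a prostaglandin transporter, had 6 UMIs in capillary-scored LECs of IgG and 3 of Ang2 Ab, with ratios of 0.0597 and 0.0437. *Bmp4*, a morphogen, had ratios of 0.0138 from 1 UMI (95% interval 0.000349 to 0.0775) and 0.0801. *Edn1*, which encodes the vasoconstrictor endothelin 1, had ratios of 0.0334 and 0.126. The monocyte chemokine gene *Ccl2* had ratios of 0.109 and 0.0155, and the stress cytokine gene *Gdf15* had 0.152 and 0.102. *Ackr4*, a scavenger of chemokines, and *Vcam1*, a leukocyte adhesion molecule, had 0 UMIs in the capillary-scored LECs of both libraries, which allows at most 3 UMIs in each sum, while other LECs held *Ackr4* at 13.8 and 1.41 and *Vcam1* at 12.2 and 10.3 CPM.

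**Figure D2:**
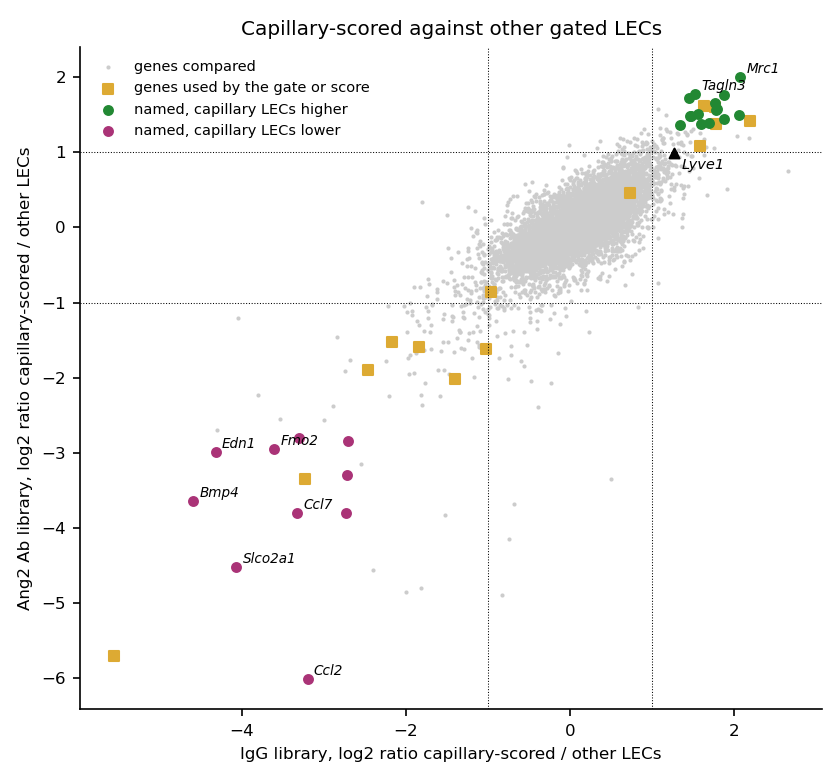
Log2 ratio of summed CPM, capillary-scored over other gated LECs, in the IgG library (x axis) and the Ang2 Ab library (y axis), 1 point per gene with at least 100 UMIs in each library, where squares are genes of the gate or score and dotted lines mark 2-fold. Named genes such as *Mrc1* (4.22-fold and 4.00-fold) lie far out in the same direction in both libraries.

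Grouped by role, the lists showed where capillary-scored LECs sat among LECs. Across all genes that passed, the median log2 ratio to other LECs was 0.12 in IgG and 0.06 in Ang2 Ab, and 58.4% and 55.2% of genes were above other LECs. Past 2-fold higher were 2.5% of all genes in IgG and 1.34% in Ang2 Ab, and past 2-fold lower 2.57% and 2.14%. Of the 8 LEC identity genes that passed, 7 were above other LECs in each library, with medians of 0.55 and 0.57. Among them were *Mmrn1*, an adhesive matrix protein of LECs, at 2.30-fold and 1.83-fold, and *Flt4*, the VEGF-C receptor, at 1.963-fold and 2.05-fold. *Nrp2*, its co-receptor, was at 1.86-fold and 2.15-fold, so all 3 VEGF receptor genes that passed were higher. Of 12 leukocyte entry and chemokine genes, 3 in IgG and 2 in Ang2 Ab were past 2-fold higher, beside 2.5% and 1.34% of all genes. *Ackr2*, which degrades inflammatory chemokines, was at 2.48-fold and 2.39-fold, and *Stab1*, a scavenger receptor, at 2.01-fold and 1.92-fold, while *Clca3a1* was at 0.395 and 0.380. Of 17 matrix and basement membrane genes, 15 in IgG and 12 in Ang2 Ab were above other LECs (medians 0.59 and 0.33), beside 58.4% and 55.2% of all genes, but *Sparc*, a collagen-binding matrix protein, was at 0.336 and 0.320.

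Lipid and flow genes held both kinds. *Apoe*, an apolipoprotein, was at 0.125 and 0.170 of other LECs, and *Fabp4*, a fatty acid carrier, at 0.275 and 0.420, whereas *Abca1*, which exports cholesterol, was at 2.11-fold and 1.73-fold. Of 8 flow and Notch genes, 3 in IgG and 2 in Ang2 Ab were above other LECs, beside 58.4% and 55.2% of all genes. *Nos3*, endothelial nitric oxide synthase, was at 0.156 and 0.295, and *Klf2*, a transcription factor induced by shear, at 0.384 and 0.590.

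Immediate early genes were lower in capillary-scored than in other LECs. Of 15 that passed, 0 were above other LECs in either library, and 13 in IgG and 5 in Ang2 Ab were past 2-fold lower, beside 2.57% and 2.14% of all genes, with median log2 ratios of -1.29 and -0.79. From the lowest score bin to the highest, *Fos* was at 5365, 4044, 3497 and 1637 CPM in IgG and at 3594, 3663, 2341 and 1712 in Ang2 Ab. The median *Fos* level per cell was 1.597 UMIs per 10000 in capillary-scored LECs against 29.6 in other LECs of IgG, and 1.66 against 14.4 in Ang2 Ab. These genes are known to be induced within minutes by tissue handling as well as by signals, and the part of dissociation was not tested.

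The plates, which played no part in choosing the 10x cells, were scored with the same genes, and the highest 25% of LEC wells in each plate was compared with the other wells. The gate kept 904 of 1524 wells, of which 227 were capillary-scored (42, 63, 63 and 59 in plates 1 to 4), and the counts of each class were summed per plate. In edgeR's quasi-likelihood test with the plate as a term, 5 of 14791 genes (0.0338%) were called higher and 6 (0.0406%) lower. These calls leave out the score and gate genes, but the p-values were adjusted over 14809 genes that included them. Score genes differ between the classes by construction, so the adjusted p-values of other genes are lower than they would be without them. An adjustment without the score genes was not run, so no call is read as settled. A second tool, DESeq2, with the plate term called 198 higher and 407 lower, so the count depends on the tool. All calls named below are those of edgeR. *Lyve1* was at 3158, 3726, 3138 and 3607 CPM in capillary-scored wells of plates 1 to 4 and at 1685, 2323, 1426 and 1636 in the other wells. Every capillary-scored sum was above every other sum, and *Lyve1* rose by 1.01 on the log2 scale (SE 0.09, Benjamini-Hochberg adjusted p = 0.0295). *Tppp3* rose by 0.86 (SE 0.08, adjusted p = 0.0295) and *Enpp3* by 1.11 (adjusted p = 0.0445). The other calls, named here after their values were seen, were *Adgrg3*, an adhesion receptor, and *Ablim3*, an actin-binding protein, among the higher genes, and *Gsn* (gelsolin), *Smtn* (smoothelin), *Trp53i11*, *Parm1*, *Lsr* and *Gm26776* among the lower ones. With any 1 plate left out no gene was called in either direction (992 to 1184 genes at an unadjusted p under 0.05, 1176 with all plates), so each call needs all 4 plates. The fold changes stayed close, and over all 11 alternatives *Lyve1* ran from 0.94 to 1.12, *Tppp3* from 0.81 to 0.91 and *Enpp3* from 0.97 to 1.20 on the log2 scale.

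Beyond the calls, direction in the plates was compared with that in the 10x libraries. Of the genes outside the score that were at least 2-fold higher in both 10x libraries, 59 were tested in the plates and 36 (61.0%) were higher in all 4, with a median log2 fold change of 0.76. Of those lower in both 10x libraries, 92 were tested and 51 (55.4%) were lower in all 4 plates, with a median of -0.88. Over the 7493 genes compared in both kinds of data, 8.87% were higher and 9.21% lower in all 4 plates. *Mrc1* was higher in all 4 plates but not called (log2 fold change 0.76, edgeR adjusted p = 0.496). *Aqp1* (1.48, adjusted p = 0.123) and *Cd276* (1.68, adjusted p = 0.0859) were not called either, nor were *Slco2a1* (-4.31, adjusted p = 0.0881) and *Bmp4* (-3.81, adjusted p = 0.0832). Of the 15 genes named as highest in the capillary-scored 10x cells, 7 were higher in all 4 plates. *Ptgfrn* was not among them, with log2 ratios of -0.16, 1.40, -0.06 and -0.26 in plates 1 to 4. *Gdf15* had a log2 fold change of 0.49 in the plates (higher in 3 of 4, adjusted p = 0.811), whereas it was lower in the capillary-scored 10x cells.

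Of 16 immediate early genes tested in the plates, 2 were higher and 3 lower in all 4, beside 7.02% and 9.95% of all genes tested, and the median log2 fold change was -0.07. The call of 0 of them stands beside the 0.0338% and 0.0406% of all genes called. *Fos* was at -0.47, *Jun* at -0.58 and *Atf3* at 0.16. Wells and droplets were handled differently, and the part of handling in either value was not tested.

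**Figure D3:**
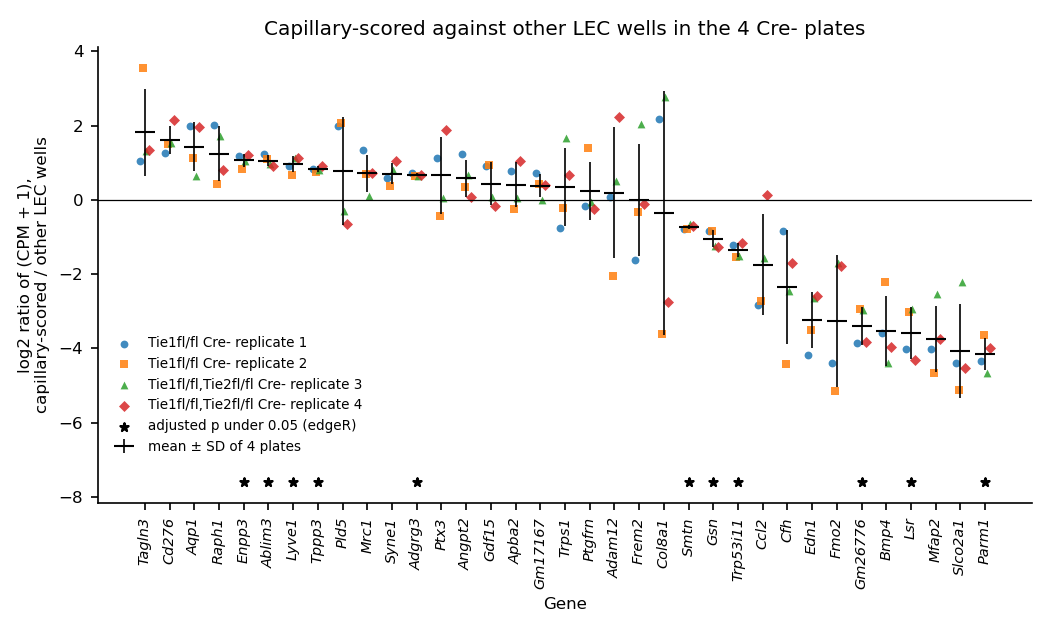
Log2 ratio of (CPM + 1) in capillary-scored over other LEC wells (y axis) for named genes (x axis), with 1 point per Cre- plate, crosses and bars for the mean ± SD of 4 plates, and stars for genes called by edgeR. *Lyve1*, *Tppp3* and *Enpp3* are above 0 in all 4 plates, while *Gdf15* does not follow the low ratios it had in the 10x libraries.

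The capillary-scored LECs of the Ang2 Ab library were compared with those of the IgG library. With 1 library per condition, and the sex of the cells moving with it, the antibody cannot be told apart from other differences between the libraries. Of 32285 features, 6613 genes had at least 100 UMIs over the capillary-scored LECs of both libraries, of which 43 (0.65%) were at least 2-fold higher and 65 (0.983%) at least 2-fold lower with Ang2 Ab. The median log2 ratio of all genes was -0.03. *Angpt2* (chr8:18690263-18741562, GRCm38), which encodes the target of the antibody, had 334 UMIs (150 CPM) in IgG and 2205 UMIs (859 CPM) in Ang2 Ab, 5.72-fold (95% interval 5.10 to 6.44). In other LECs the ratio was 7.70. After thinning to 4000 UMIs per cell, 27.98% of capillary-scored LECs in IgG (95% interval 21.3 to 35.4) and 75.0% in Ang2 Ab (68.0 to 81.1) had an *Angpt2* UMI, against 13.1% and 21.7% of blood endothelial cells, and without thinning the shares in capillary-scored LECs were 48.0% and 85.6%. Thinning left out 9 and 8 shallower capillary-scored cells.

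In every bin of the score the *Angpt2* level of Ang2 Ab was above that of IgG. In IgG its level from the lowest bin to the highest was 64.0, 105, 120 and 150 CPM, and in Ang2 Ab it was 288, 658, 929 and 859, so the lowest-scored cells had least of it in both libraries. The receptor genes differed by less, with *Tie1* at 468 (IgG) and 489 (Ang2 Ab) and *Tek*, which encodes TIE2, at 80.5 and 75.2. *Ptprb*, which encodes the phosphatase VE-PTP that removes phosphate from TIE2, was at 208 and 160, and *Angpt1* had 0 UMIs in both.

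The other genes higher with Ang2 Ab included channels, secreted peptides and matrix. *Kcnj8*, the pore subunit of an ATP-sensitive potassium channel, was at 3.15 CPM in IgG and 48.7 in Ang2 Ab, 15.5-fold (7.29 to 39.3), against 5.56-fold in other LECs. It had 7 UMIs in IgG and 125 in Ang2 Ab. It thus passed the 100 UMI minimum only through the library where it was high, and nothing is read from its rank. *Kcnj8* is also a pericyte gene, and after thinning it was found in 1.79% and 10.6% of capillary-scored LECs but in 26.4% and 35.4% of collagen-rich cells. The latter had at least 20 UMIs of *Col1a1* and *Col1a2* together and none of *Prox1*, *Pecam1* or *Cdh5*. They also held *Rgs5* at 3422 and 3347 CPM and *Acta2* at 995 and 678, so this gate does not separate fibroblasts from mural cells. *Rgs5*, the most abundant mural gene in the IgG cells, was at 43.2 and 14.03, with 60 of its 96 IgG UMIs in 3 cells, while in other LECs *Rgs5* was 4.67-fold and *Kcnj8* 5.56-fold higher with Ang2 Ab, and there 1 cell held 267 of the 606 *Rgs5* UMIs of the Ang2 Ab library. The part of mural RNA in the *Kcnj8* value was not tested. *Pde2a*, a phosphodiesterase of cyclic nucleotides, was at 8.10 and 69.4 (8.57-fold), and *Adm*, which encodes adrenomedullin, at 18.4 and 88.8 (4.82-fold). With 18 UMIs in IgG and 178 in Ang2 Ab, *Pde2a* also passed the minimum through the Ang2 Ab library. *Pde2a* is abundant in blood endothelium, where 50.1% and 57.4% of cells had a UMI after thinning, against 3.57% and 16.7% of capillary-scored LECs.

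*Scn3a*, a voltage-gated sodium channel subunit, was abundant in these cells at 887 CPM in IgG and 2049 in Ang2 Ab, 2.31-fold (2.19 to 2.43), with 3.75-fold in other LECs. *Fn1*, fibronectin, was at 513 and 1573, 3.07-fold (2.87 to 3.28), with 2.07-fold in other LECs. *Ccn2*, a matricellular growth factor, was at 77.4 and 296 (3.83-fold), and *Ntn4*, a laminin-related netrin, at 3.06-fold beside the netrin receptor gene *Neo1* at 3.15-fold. The study lists *Neo1* among its valve LEC genes, and 75 of its 229 Ang2 Ab UMIs lay in 3 cells. *Mgll*, which cleaves monoacylglycerols, was at 3.16-fold, *Pcdh17*, a protocadherin, at 3.19-fold and *Adgrl4*, an endothelial adhesion receptor, at 2.68-fold. *Gpsm3*, *Pkib* and *5330416C01Rik* completed the 15 highest, at 3.56, 3.29 and 4.52-fold. *5330416C01Rik* had 18 UMIs in IgG and 94 in Ang2 Ab, so it reached the 100 UMI minimum mainly through the library where it was high. *Adm*, *Gpsm3*, *Pkib*, *Pcdh17*, *Neo1* and *Ntn4* also had under 100 UMIs in IgG. Nothing is read from the ranks of any of these genes. All 15 genes were at least 2-fold higher within the *Xist*-only and within the Y-only capillary-scored LECs, where ratios ran from 2.03 to 21.03. Those cells are most of the cells that chose the genes, so this is a description and not independent support.

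**Figure D4:**
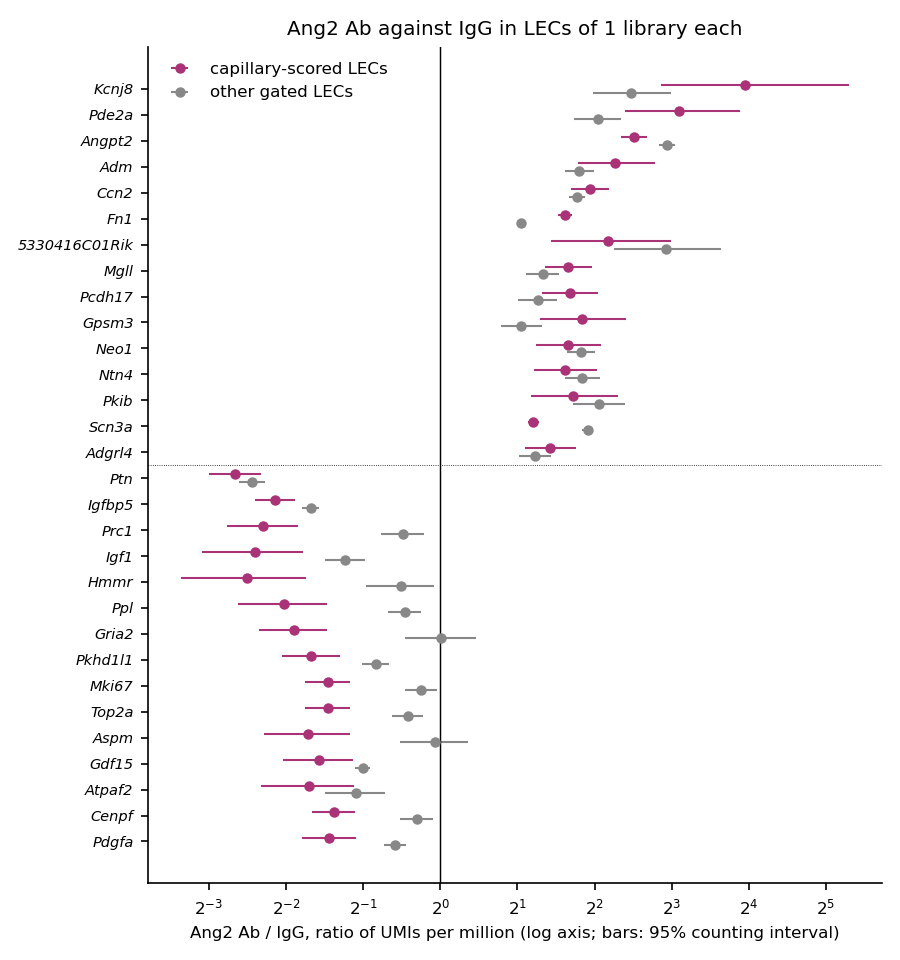
Ratio of CPM, Ang2 Ab over IgG (x axis, log scale), for the genes named as highest and lowest in capillary-scored LECs, with the value in other LECs beside it and bars for 95% counting intervals. *Kcnj8* is the farthest to the right at 15.5-fold (7 UMIs in IgG), and *Ptn* the farthest to the left at 0.158.

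Genes lower with Ang2 Ab included growth factors and a binding protein. *Ptn*, the heparin-binding factor pleiotrophin, was at 214 CPM in IgG and 33.9 in Ang2 Ab, a ratio of 0.158 (0.125 to 0.199), and at 0.184 in other LECs. A UMI of *Ptn* was found after thinning in 35.7% of capillary-scored LECs in IgG and 10.0% in Ang2 Ab. In blood endothelial cells the shares were 10.1% and 4.13%, so *Ptn* was lower there with Ang2 Ab as well. *Igf1* was at 51.7 and 9.74 (0.188), and *Igfbp5*, which binds IGF-1, at 263 and 59.6 (0.227). *Pdgfa*, a ligand of the PDGF receptor of mesenchymal cells, was at 106 and 39.0 (0.369). *Gria2*, an AMPA receptor subunit, was at 84.1 and 22.6 (0.269), while other LECs had 13.3 and 13.4. *Ppl* (periplakin, a cytolinker), *Pkhd1l1* (fibrocystin-like) and *Atpaf2* (an assembly factor of mitochondrial ATP synthase) had ratios of 0.245, 0.314 and 0.307, where 58 of the 93 IgG UMIs of *Atpaf2* lay in 3 cells. Of the 15 lowest genes, 8 were past 2-fold lower in both *Xist*-only and Y-only cells, namely those in this paragraph.

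Of the remaining 7 genes, 6 were genes of mitosis (*Prc1*, *Hmmr*, *Mki67*, *Top2a*, *Aspm*, *Cenpf*), and their difference rested on few cells. *Mki67*, a marker of dividing cells, was at 153 and 55.7 CPM (0.363), but 313 of its 341 UMIs in IgG lay in 3 cells. At least 2 UMIs in the sum of *Mki67* and *Top2a* were found in 14 of 177 capillary-scored LECs in IgG (7.91%, 95% interval 4.39 to 12.9) and 9 of 188 in Ang2 Ab (4.79%, 2.21 to 8.89). These intervals cover counting error over cells only, so they cannot decide whether the conditions differed. In Y-only cells *Mki67* had a ratio of 3.43. The 15th gene, *Gdf15*, was at 67.5 and 22.6 (0.335), with 111 of its 150 IgG UMIs in 3 cells and a ratio of 1.62 in Y-only cells.

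**Figure D5:**
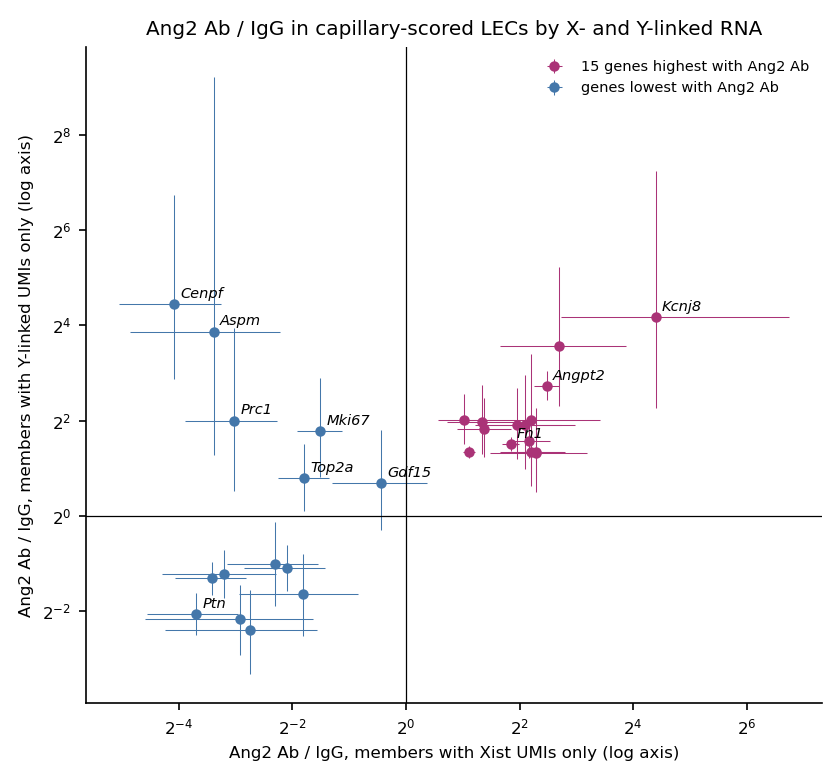
Ratio of CPM, Ang2 Ab over IgG, in capillary-scored LECs with *Xist* UMIs only (x axis, log scale) and with Y-linked UMIs only (y axis, log scale), 1 point per named gene. *Angpt2* lies at 5.56 and 6.61, while *Mki67* lies at 0.350 and 3.43.

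All 15 of the highest genes but 8 of the 15 lowest kept their direction in both kinds of cell. The genes were chosen in these same cells pooled, so a kept direction is partly built in. *Angpt2* was 5.56-fold higher in *Xist*-only cells (4.77 to 6.497) and 6.61-fold in Y-only cells (5.37 to 8.23), and *Fn1* was 3.59-fold and 2.85-fold higher. *Ptn* had ratios of 0.0770 and 0.241, and *Igfbp5* of 0.0939 and 0.403. *Gja4*, a gap junction gene of the junction list, was at 0.317 in *Xist*-only and 0.698 in Y-only cells, so part of its pooled ratio of 0.507 depends on which cells are read.

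In the pathway lists the counts past 2-fold stand beside 1.63% of all genes in either direction, so a count of 0 in a short list is near the background. None of 15 genes of PI3K, Akt and FoxO that passed was past 2-fold (median log2 ratio -0.19, and -0.11 in other LECs). *Foxo1* was at 153 CPM in IgG and 155 in Ang2 Ab, *Pik3ca* at 95.8 and 84.2, and *Pik3r1*, the regulatory subunit, at 65.2 and 38.6. *Cited2*, a transcriptional coregulator below the 100 UMI minimum, was at 10.8 and 22.6. All 3 VEGF receptor genes that passed were below 1 (median -0.38), a weak count since only 45.6% of all genes were above 1, with *Nrp2* (chr1:62703285-62818695) at 775 and 484 (0.625), *Kdr*, which encodes VEGFR2, at 624 and 480 and *Flt4* at 1110 and 1017. Their ratios in Y-only cells were 0.683, 0.898 and 0.959, and in *Xist*-only cells 0.530, 0.474 and 0.800.

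None of the 8 LEC identity genes and 12 leukocyte entry and chemokine genes that passed was past 2-fold. Below the 100 UMI minimum, the chemokine gene *Ccl2* was at 13.0 CPM in IgG (29 UMIs, 22 of them in 3 cells) and 1.95 in Ang2 Ab (5 UMIs), a ratio of 0.149. *Lyve1* was 1.21-fold higher with Ang2 Ab, *Prox1*, the master regulator of LEC fate and a gate gene, was at 0.901, and *Pdpn*, which encodes podoplanin, at 0.718. *Tppp3*, the other capillary marker outside the score, was lower with Ang2 Ab, at 364 CPM in IgG and 216 in Ang2 Ab. *Ccl21a*, the chemokine that guides dendritic cells to lymphatics, was at 14137 and 8936 CPM (0.632) and at 0.586 in both *Xist*-only and Y-only cells. Near-identical copies of *Ccl21a* share reads, so its level is uncertain. *Mrc1* was at 1.47 and *Stab1* at 1.36, and of the 12 leukocyte entry and chemokine genes 6 were above 1, beside 45.6% of all genes.

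The matrix, guidance and lipid lists each held 1 or 2 genes past 2-fold. Of 17 matrix genes, *Fn1* was past 2-fold higher and *Eln*, which encodes elastin, past 2-fold lower at 672 and 292 (0.435), with a list median of -0.22. The basement membrane genes lay between, with *Col4a1* at 0.753 and *Lama4* at 0.792. *Efnb2*, an ephrin of lymphatic valves and arteries, was past 2-fold, at 241 and 103 (0.428), as 1 of the 10 genes of the axon guidance list that passed, and *Ntn4* and *Neo1*, described above, are not in that list. *Cd36*, a fatty acid receptor, was past 2-fold as 1 of 7 lipid genes, at 32.8 and 88.4 (2.69-fold). Of 14 immediate early genes 0 were past 2-fold (median 0.03), and *Fos* was at 1.05, while the median in other LECs was -0.54.

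The difference between the libraries was compared with that in other LECs. Past 2-fold higher were 43 genes in capillary-scored and 57 (0.862%) in other LECs, with 34 in both. Of the 43, 42 were above 1 in other LECs, beside 3309 of all 6613 genes. Past 2-fold lower were 65 genes in capillary-scored and 28 (0.423%) in other LECs, with 12 in both. Of the 65, 60 were below 1 in other LECs, where 3309 of all 6613 genes were above 1. These counts come from sums of unequal depth (2223518 and 2566602 UMIs in capillary-scored LECs, 10967201 and 4260377 in other LECs), and the difference between them was not tested. The sex of the cells also moved more between the libraries in capillary-scored than in other LECs. The 65 lower genes became 19 in Y-only cells and 20 with at least 300 UMIs. The ratio in capillary-scored over that in other LECs had a counting interval above 1 for 1003 and below 1 for 1395 of 6578 genes, which measures counting error only and not the spread between animals. Ranked by the interval bound nearest to 1, the 5 highest ratios of ratios were at *Col1a1* (4.42), *Col3a1* (2.18), *Socs3* (2.07), *1110038B12Rik* (2.07) and *Pigp* (2.0998), and the first 2 are fibroblast collagens that were at 143 (*Col1a1*) and 132 (*Col3a1*) CPM in other LECs of IgG. *Kcnj8* had a ratio of ratios of 2.78 with a wide interval (1.56 to 4.95). *Socs3*, a feedback inhibitor of cytokine signals, was at 347 and 164 CPM in other LECs against 105 and 102 in capillary-scored LECs. The 5 lowest by the same rule were at *Rgs5* (0.0696, which rests partly on the few cells named above), *Hmmr* (0.2497), *Gria2* (0.267), *Prc1* (0.284) and *Aspm* (0.320).

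In the plates, where no antibody was given, *Angpt2* was at 483, 363, 272 and 348 CPM in capillary-scored wells of plates 1 to 4 and at 206, 288, 170 and 333 in other wells. It was higher in all 4 plates, but the classes overlapped and it was not called (log2 fold change 0.62, edgeR adjusted p = 0.479). Of the 15 genes lower with Ang2 Ab and the 13 tested of the 15 higher ones, 0 were called between the classes of wells, beside the 0.0338% and 0.0406% of all genes called, so nothing is read from this count.

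FoxO factors bind motifs such as TGTTTAC and TGTTTGC, so the promoters of the genes named for the antibody were read from RefSeq (GRCm38.p6), from 250 bases before to 50 bases after each start, on both strands. A window was given for 11 of the 15 higher genes and 13 of the 15 lower ones. *Angpt2*, *Ccn2*, *Fn1* and *Scn3a* among the higher genes and *Ppl* and *Pkhd1l1* among the lower had none, so their promoters were not read. A motif stood in 1 of 17 windows of the higher genes (5.88%) and 2 of 16 of the lower genes (12.5%, *Hmmr* and *Top2a*), against 8.48% of all 32851 windows. The match among the higher genes was 241 bases before the start of *Mgll*, in the window chr6:88724162-88724461 on the plus strand, shown as the single match with the motif in capitals (read on the opposite strand as TGTTTAC).
*Mgll* site: tgtgcaactGTAAACAtgtgcatgca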

How the data were processed

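For the 10x libraries the authors deposited UMI counts per gene and cell, made with Cell Ranger (6.0.2 in the matrix headers, 2.1.1 in the submitters' processing notes, which name GRCm38). Smart-seq wells came as deposited counts of reads for each gene (TopHat2 2.1.1 and featureCounts in the notes), and 42545 genes were joined over the 4 plates, without spike-in rows (0.131% and 0.155% of counts in the plates that list them). Members and gene lists were chosen with earlier results of these data known. In 10x data, UMIs of a class were summed per library and given as CPM, genes with at least 100 UMIs were compared, and no p-value was computed. A count of 0 was floored at 3 counts. No doublet caller was run. The *Flt1* limit was set against cells mixed with blood endothelium, and leaving out the 5% of cells with most UMIs was an alternative. Named genes were the 15 highest and 15 lowest by the nearest interval bound for Ang2 Ab, the 15 highest and 10 lowest against other LECs by the smaller of the 2 libraries' ratios, the 5 highest and 5 lowest ratios of ratios, and all listed genes.

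Wells had at least 1000 genes, 50000 counts, 2 counts of *Prox1*, at most 100 CPM of *Flt1* and under 400 CPM of the valve genes. Class sums of each plate were tested with edgeR 4.0.16 (R 4.3.3, TMM, filterByExpr, robust quasi-likelihood, plate as a term, Benjamini-Hochberg adjusted p under 0.05). The adjustment ran over 14809 genes with the score and gate genes among them, and those genes were left out only when calls were counted. Both classes come from the same plate, so plates are paired by design (correlations of deviations 0.231, 0.147, 0.155 and 0.146). Plate totals were 94248006, 82713822, 90269616 and 101530115 counts, and nothing in the labels says which animals they hold, so p-values measure the spread between plates, which may be technical. On simulated counts of the plate comparison 98% of 2-fold and 100% of 4-fold genes were recovered over 14809 genes. The simulation used 1 dispersion set in advance for all genes and changed only well-counted genes. It checks that the code runs as intended and does not measure the power of the test on the real counts. DESeq2 1.42.0 was an alternative. The deletion plates were not analysed here.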

Additional observations from a re-analysis of the deposited data

Results flagged for a closer look

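In 3 genes 1 plate stood apart from the other 3 in the log2 ratio of capillary-scored to other wells. *Adgrg3* was at 0.74 in plate 1, and *Ptgfrn* at 1.40 and *Tagln3* at 3.56 in plate 2. In the other 3 plates *Ptgfrn* was below 0 (-0.16, -0.06 and -0.26). Chance marks about 1 in 20 groups, and 35 genes were examined.

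The 10x ratios of Ang2 Ab to IgG pointed opposite ways in *Xist*-only and Y-only capillary-scored LECs for 4 mitosis genes that had at least 3 UMIs in every sum and counting intervals clear of 1 on both sides. They were 0.123 and 4.00 for *Prc1*, 0.350 and 3.43 for *Mki67*, 0.289 and 1.73 for *Top2a*, and 0.0590 and 21.8 for *Cenpf*. *Hmmr* (0 IgG UMIs in Y-only cells), *Aspm* (1) and *Gdf15* (*Xist*-only interval 0.406 to 1.29) also had ratios on opposite sides of 1. The difference between the kinds of cell was not tested.

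Capillary-scored and other LECs differed in direction for *Col3a1* (1.30 against 0.595), *Pigp* (1.40 against 0.667) and *Rgs5* (0.325 against 4.67). These differences were not tested either, since each condition was 1 library.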

How the results depend on the processing

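Alternatives were recomputed for 10x ratios and plate calls. Leaving out cells with at least 2 UMIs in the sum of *Mki67* and *Top2a* was chosen after seeing the data. The share of capillary-scored LECs (IgG, Ang2 Ab) was 10.1% and 24.4% with the top 15% as members, and 25.9% and 52.5% with the top 35%. The count of genes higher with Ang2 Ab was 69 with the top 35%, 149 with at least 30 UMIs and 16 with at least 300. The count of lower genes was 98 with the top 35%, 103 with the top 25% of each library, 227 with at least 30 UMIs, 20 with at least 300 and 19 in Y-only cells. Against other LECs, 30 genes were higher with a thinned score, and 119 higher and 220 lower with at least 30 UMIs, and 40 and 64 with at least 300. In the plates the calls (higher, lower) were 198 and 407 with DESeq2, 2 and 20 with no replicate block, and 9 and 21 with the top 35%. They were 3 higher with a thinned score, 29 lower with no filter and 13 lower with at least 100000 counts per well. Leaving out each plate gave 0 to 0 in both directions.

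Among 357 recomputed ratios of named genes, 275 stayed near the main value, 70 moved and 12 reversed. The 15 genes higher with Ang2 Ab reversed in 0 cases, with a lowest ratio of 1.83, and *Angpt2* ran from 5.46 to 7.32. The alternatives reuse cells of the libraries that chose these genes. Reversals were *Hmmr* 1.34, *Mki67* 3.33, *Top2a* 1.79 and *Aspm* 1.34 without the 5% of cells with most UMIs, and *Top2a* 1.48 without cycling cells. The last left 5 *Top2a* UMIs in IgG and 9 in Ang2 Ab (0.446 to 5.63). Cells were left out there by *Top2a* itself, so nothing is read from it. In Y-only cells the reversals were *Prc1* 4.00, *Hmmr* 1.83 (IgG floored), *Mki67* 3.43, *Top2a* 1.73, *Aspm* 14.6, *Gdf15* 1.62 and *Cenpf* 21.8. Of 121 plate fold changes, 57 lost their call and 0 reversed, while their size stayed near the main value (*Lyve1* 0.94 to 1.12, *Parm1* -5.18 to -4.81). The cause of these changes was not tested. With 1 library per condition, depth limits only the counting intervals.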
